A study of Homo sapiens with 12 samples.

Results

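HCC4006 is a human lung adenocarcinoma line that carries an activating in-frame deletion in EGFR, and the question was what sets its transcriptome apart from 3 other lung adenocarcinoma lines whether the cells are attached or not. Its members are the 3 libraries labelled with that line, of 12 in all, and they were compared with the 9 libraries of NCI-H2009, LC-2/ad and NCI-H2228. LC-2/ad carries a CCDC6-RET fusion and NCI-H2228 an EML4-ALK fusion. These driver lesions are background knowledge and are not in the labels. Each line gave 1 library from ordinary attached culture, 1 from cells kept for 1 day on an ultra-low attachment surface after trypsin, and 1 from cells kept there for 7 days. All lines were grown in RPMI-1640 with fetal bovine serum, penicillin and streptomycin, and the labels name no drug besides. The 3 libraries of a line share that line and differ in state, so they are not repeat cultures of 1 condition, and the p-values below measure spread among these 12 libraries. A single line stands against 3 others, and over lines alone a permutation test could not reach a p below 0.25.

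EGFR is a receptor tyrosine kinase of the epithelium that binds ligands such as amphiregulin and epiregulin and signals through ERK. ERK signalling raises transcripts of its own brakes, the DUSP phosphatases and the SPRY and SPRED proteins. In the lung, NKX2-1 marks the alveolar and airway lineage, alveolar type 2 cells make surfactant, and secretory airway cells make mucins and secretoglobins.

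A gene was called set apart when edgeR found it higher, or lower, in HCC4006 than in each of the 3 other lines, by the largest of the 3 p-values after Benjamini-Hochberg adjustment over all genes, with a threshold of 0.05. Its gap is the log2 difference from the nearest line. The second measure is the log2 difference from the mean of the other lines, and the third is whether the 3 HCC4006 values in TPM (transcript abundance scaled for length and depth) lay outside the range of the other 9. Of 18494 genes tested, 422 were set apart as higher (2.28%) and 258 as lower (1.4%). Against the mean of the lines 3713 were higher (20.1%) and 2419 lower (13.1%). Without the attached, day 1 or day 7 library of HCC4006 this lower count was 1508, 1290 and 1294, and without the day 7 library 2472 genes were higher. In TPM, 1588 had no overlap as higher (8.59%) and 904 as lower (4.89%). Together 680 genes were set apart (3.68%), and of these 415 higher (2.24%) and 247 lower (1.34%) genes also had no overlap. The median log2 difference over all genes tested was 0.03 (0.02 with genes that had no count in a line set to a floor of 3 counts). With the 9 other libraries taken as 1 group, so that the spread among the other lines enters the error, 748 genes were higher and 455 lower. Without the attached, day 1 or day 7 library of HCC4006, 137, 159 and 142 genes were set apart as higher and 87, 79 and 85 as lower. Without the attached, day 1 or day 7 library of LC-2/ad the higher counts were 230, 239 and 250 and the lower counts 145, 161 and 154. Without the attached library of NCI-H2228 they were 224 and 155, and without its day 7 library 273 genes were higher. The median gap was 2.04 for the higher genes and 1.88 for the lower ones, and 149 and 87 of them had a gap over 3. Total estimated counts ran from 31134420 to 41882024 per library, and the mitochondrial share of TPM in HCC4006 (1.49% to 2.68%) lay within the range of all libraries (0.526% to 3.39%). Of the variance in log2 CPM, differences between lines took 77.0% and state 8.90%. Over 14800 protein-coding genes, HCC4006 correlated most with LC-2/ad in each state (Pearson's r 0.91, 0.90 and 0.89), and its own states correlated with each other at 0.97 to 0.98. LC-2/ad was likewise the closest line to NCI-H2009 (0.91, 0.89 and 0.91) and to NCI-H2228 (0.90, 0.88 and 0.88), so this is not particular to HCC4006. These correlations are across genes, which are not independent, and are given as a description.

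EGFR was high in HCC4006 but was not set apart. It stood at 125, 94.6 and 112 TPM in the attached, day 1 and day 7 libraries, and NCI-H2228 held 112, 95.4 and 63.5 TPM in the same order. LC-2/ad held 34.9, 27.2 and 35.9 TPM and NCI-H2009 26.5, 10.9 and 16.1 TPM. Later values for HCC4006 are in the same order, and those for the other lines are the lowest, the highest and the median of their 9 libraries. The HCC4006 libraries were above those of LC-2/ad and NCI-H2009 and overlapped with those of NCI-H2228. The log2 difference from the mean of the lines was 1.61 ± 0.17 (SE, adjusted p = 0.000113), and that from NCI-H2228 was 0.20 ± 0.23. In GRCh38 the gene spans chromosome 7 from 55019017 to 55211628. The deletion itself cannot be seen in values per gene.

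Some genes around EGFR were set apart although EGFR was not. Of 17 tested genes within 3 Mb, 12 were higher than the mean of the lines and none lower, 9 had no overlap and 4 were set apart as higher, with a median log2 difference of 1.32 against 0.03 over all genes. Of all genes tested 20.1% were higher than the mean, 8.59% had no overlap as higher and 2.28% were set apart as higher. SEC61G, a subunit of the channel that moves proteins into the endoplasmic reticulum, stood at 1856, 2615 and 1960.4 TPM against 329 to 714 (median 429.6) in the other lines. Its gap was 1.88 ± 0.28 (adjusted p = 0.00655). VOPP1 stood at 50.98, 39.5 and 49.9 TPM against 9.597 to 24.4 (median 14.6), with a gap of 1.55 ± 0.23 (adjusted p = 0.0063). The other members set apart were CCT6A, a chaperonin subunit (gap 1.17 ± 0.26), and NIPSNAP2 (gap 0.81 ± 0.18).

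**Figure D1:**
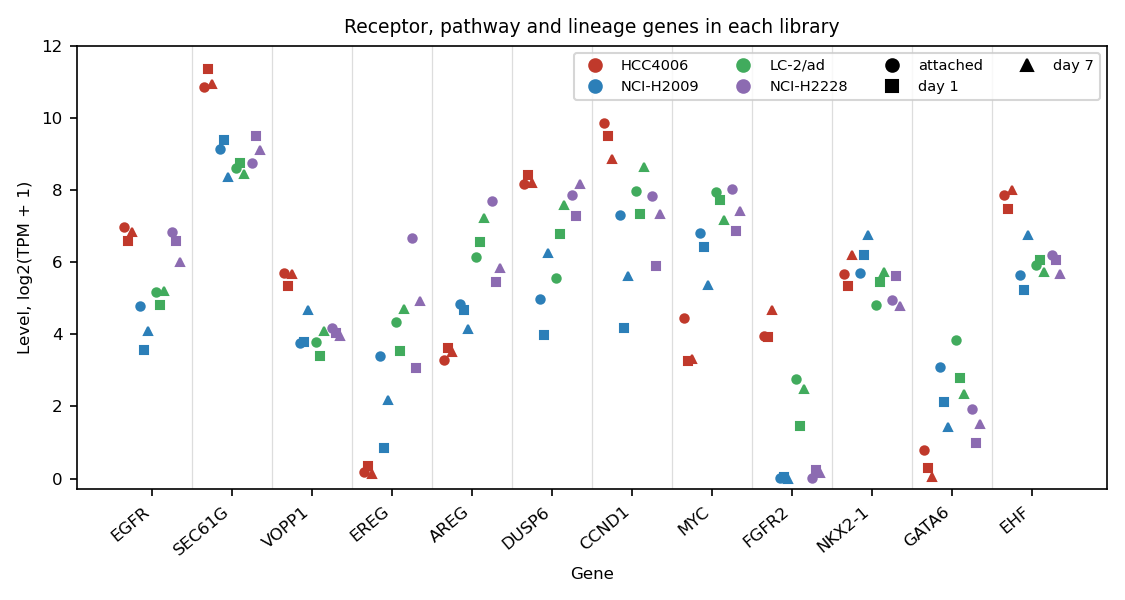
Level of 12 genes in each of the 12 libraries, as log2(TPM + 1), with colours for lines and symbols for states. The red points of HCC4006 lie outside the range of the others for the genes shown except EGFR and NKX2-1, narrowly so for DUSP6.

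The ligand genes EREG and AREG were lower in HCC4006 than the mean of the other lines. EREG, which codes for epiregulin, stood at 0.13, 0.275 and 0.087 TPM against 0.813 to 100.3 (median 10.7), and it was the single member of the EGFR family and ligand list that was set apart (gap -3.97 ± 0.87, adjusted p = 0.0347). AREG, which codes for amphiregulin, stood at 8.75, 11.2 and 10.4 TPM against 16.8 to 206 (median 56.4). It did not overlap with the other lines, and its difference from their mean was -2.56 ± 0.52 (adjusted p = 0.00397), but its gap did not pass (adjusted p = 0.478). Of the 12 tested members of the list, 1 was higher than the mean of the lines and 4 were lower, with a median of -0.35. Over all genes 20.1% were higher than the mean, 13.1% were lower and 3.68% were set apart. The partner receptors ERBB2 (36.3, 37.4 and 38.99 TPM) and ERBB3 (31, 29.2 and 51.5 TPM) lay inside the range of the other lines, which was 12.4 to 173 (median 83.9) and 3.64 to 79.01 (median 21.9).

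Outputs of the ERK pathway went both ways. DUSP6, a phosphatase that switches off ERK, stood at 285, 337 and 289 TPM against 14.7 to 284 (median 108), above the other libraries by a narrow margin over NCI-H2228. CCND1, the cyclin that drives entry into the cell cycle, stood at 919, 719 and 459.8 TPM against 16.9 to 397 (median 159). SPRED1 (16.5, 13.3 and 18.2 TPM) and SPRY4 (4.44, 6.03 and 5.43 TPM), which restrain receptor signalling, also stood above 9.86 and 4.098 TPM, the highest values of the other lines. Each of these 4 genes was higher than the mean of the lines, by 1.80, 2.54, 1.77 and 2.76 on the log2 scale, and none was set apart. MYC, a transcription factor of growth, went the other way with 20.9, 8.51 and 8.88 TPM against 39.9 to 260.1 (median 143). Each HCC4006 library was below every other library, and the gap was -2.59 ± 0.36 (adjusted p = 0.00471). PHLDA1 was lower without overlap too, with 24.5, 11.7 and 12.4 TPM against 26.9 to 220.1 (median 45.4). In the whole list of 20 tested genes, 6 were higher than the mean of the lines, 5 were lower and MYC alone was set apart. Over all genes 20.1% were higher than the mean and 13.1% lower. The share set apart was 3.68%, at which a list of this size holds few such genes or none.

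Among 33 tested driver and tumour suppressor genes, 3 were set apart as higher and 1, MYC, as lower. Over all genes 2.28% were set apart as higher and 1.4% as lower. SMARCA2, an ATPase of the SWI/SNF chromatin remodeller, stood at 44.5, 46.8 and 56.04 TPM against 7.998 to 28.9 (median 12.5), with a gap of 1.80 ± 0.20 (adjusted p = 0.00152). Of 19 tested SWI/SNF subunits it was the only one set apart, against 3.68% over all genes. FGFR2, a receptor of fibroblast growth factors, stood at 14.5, 14.1 and 24.5 TPM against 0 to 5.83 (median 0.119), where the highest values belonged to LC-2/ad (gap 2.20 ± 0.46, adjusted p = 0.0289). CCDC6 was higher by a smaller margin (gap 0.85 ± 0.19). FGFR2 and ROR2, a receptor for Wnt5a, were the 2 members set apart among 21 receptor tyrosine kinases, and ROR2 stood at 4.35, 4.21 and 2.52 TPM against 0.009 to 0.392 (median 0.024). The transcripts that mark the other lines were low: ALK stood at 0.112, 0.245 and 0.27 TPM against a mean of 7.798 in NCI-H2228, and RET at 0.806, 1.16 and 0.94 TPM against a mean of 13 in LC-2/ad. CDKN2A was listed at 0, 0.074 and 0 TPM and was not among the genes set apart.

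The genes with the widest gaps were low or at 0 in the other lines. They are taken from 287 protein-coding genes that were set apart as higher without overlap and had at least 10 TPM in each HCC4006 library. TMEM100 (13.3, 17 and 43.5 TPM) and the serine protease gene PRSS41 (11.6, 14.96 and 16.8 TPM) had no count in any other library. Set against a floor of 3 counts in a library, they were at least 264-fold and 115-fold higher. The homeobox gene HOXC12 (13.9, 18.2 and 14.6 TPM) and the forkhead factor FOXR2 (15.7, 15.2 and 17.4 TPM) each had 1 count in all the other libraries together. SCGB3A1, a secretoglobin of airway secretory cells, stood at 784, 1203 and 4338 TPM against 0 to 1.44 (median 0.334). Its gap was 10.77 ± 0.70 (adjusted p = 0.000102), and it lies on chromosome 5 from 180590105 to 180591499. HCLS1, a cortactin relative best known from blood cells, stood at 166, 205 and 171 TPM against 0 to 0.678 (median 0.14). PTPRC, the pan-leukocyte marker, did not exceed 0.834 TPM in HCC4006. The summed TPM of all 8 leukocyte markers looked at was 38.4, 87.5 and 120, against 3.60 to 61.8 in the other lines, as detailed below.

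Others in this group code for secreted or membrane proteins. MGP, the matrix Gla protein that inhibits calcification, stood at 574, 694 and 882 TPM against 0 to 3.59 (median 1.5), with a gap of 8.57 ± 0.60 (adjusted p = 0.000123). SPTSSB, a subunit of the enzyme that starts sphingolipid synthesis, held nearly the same level in each state, 113, 121 and 119 TPM, against 0 to 0.952 (median 0.26). BMP7, a bone morphogenetic protein, stood at 15.2, 22.05 and 12.1 TPM against 0 to 0.441 (median 0), and SLIT3, a guidance ligand, at 24.7, 28.9 and 19.1 TPM against 0 to 0.979 (median 0.02). ACHE, acetylcholinesterase, had 38.5, 61.5 and 71.2 TPM against 0.124 to 0.768 (median 0.421). SLC1A7, a glutamate transporter, and HOXB2 completed the group with at least 19.5 and 16.9 TPM in each HCC4006 library and at most 0.457 and 1.17 TPM elsewhere. CST4, a salivary cystatin, had 406, 1377 and 14301 TPM against 0 to 41.6 (median 1.94), but it has near-identical relatives and its estimate is uncertain. ERN2, a stress sensor of mucous epithelium, had 109.6, 165 and 169 TPM against 0 to 3.5 (median 0.255), and it overlaps PLK1 on the opposite strand, so its value is uncertain as well. No HCC4006 library overlapped with another line for any of these 15 genes.

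**Figure D2:**
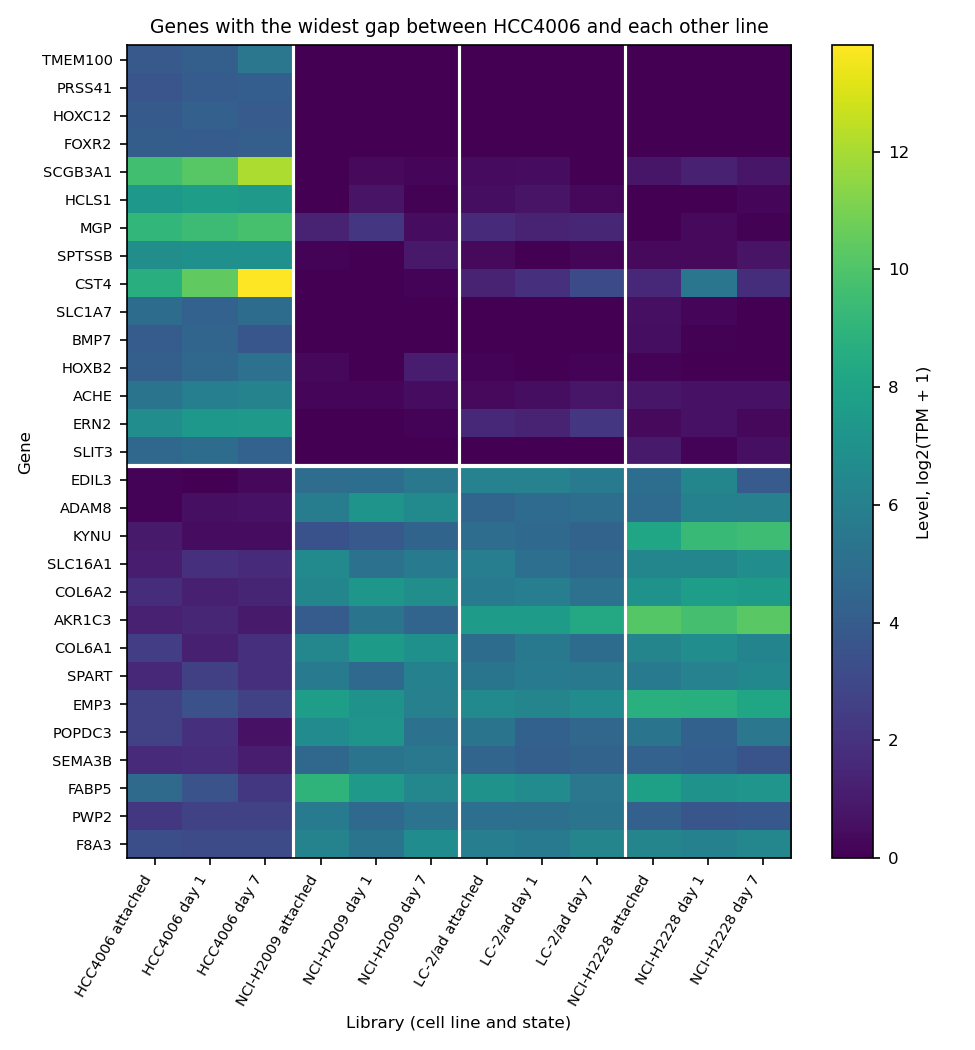
Levels, as log2(TPM + 1), of the 15 higher genes and 14 of the 15 lower genes with the widest gap, by library. The upper 15 rows are bright in the 3 HCC4006 columns, and the lower 14 rows are dark there and brighter in the 9 other columns.

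The lower genes come from 108 that were set apart without overlap and had at least 10 TPM in each of the 9 other libraries. EDIL3, an integrin ligand of the matrix, was nearly absent from HCC4006 with 0.113, 0.021 and 0.227 TPM against 14.4 to 81.01 (median 44.8), with a gap of -7.99 ± 0.80 (adjusted p = 0.000883). ADAM8, a metalloprotease, had 0.083, 0.456 and 0.607 TPM against 21.5 to 138 (median 57.7). KYNU, the kynureninase of tryptophan breakdown, had 1.001, 0.371 and 0.352 TPM against 10.2 to 741 (median 24.9), with the highest values in NCI-H2228. SLC16A1, the lactate carrier MCT1, had 1.17, 2.58 and 2.12 TPM against 23.9 to 109 (median 59.99), with a gap of -4.69 ± 0.46 (adjusted p = 0.000852). The adjacent collagen VI genes COL6A1 and COL6A2 were both low, at 4.74, 1.32 and 2.58 and 2.54, 1.35 and 1.71 TPM, against 28.1 to 182 (median 77.9) and 35.5 to 213 (median 114).

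The other lower genes had smaller gaps. SPART, a protein of lipid droplets and endosomes, had a gap of -3.94 ± 0.32 and EMP3, a tetraspan membrane protein, of -3.72 ± 0.44. POPDC3 had a gap of -3.45 ± 0.71 and SEMA3B, a semaphorin, of -3.15 ± 0.36. PWP2, a factor of ribosomal RNA processing, had 3.72, 5.68 and 5.57 TPM against 11.8 to 49.7 (median 32.4). AKR1C3 is described with the NRF2 targets, and it has near-identical relatives. FABP5, a fatty acid carrier (26.6, 10.7 and 3.702 TPM), shares near-identical sequence with its pseudogenes, and F8A3 (8.98, 7.76 and 8.09 TPM) is 1 of several near-identical copies, so both estimates are uncertain.

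The lung lineage factor did not set HCC4006 apart. NKX2-1 stood at 49.6, 39.4 and 72.8 TPM, inside the range of the others (26.5 to 107, median 48.4). Of 34 tested lung and foregut transcription factors, 12 were higher than the mean of the lines and 5 lower, and the median was 0.10 (-0.06 with genes absent from a line set to the floor). The shares over all genes were 20.1% and 13.1%. EHF, an ETS factor of epithelia, was set apart as higher with 230.1, 177 and 256 TPM against 36.8 to 107 (median 59.8), with a gap of 1.77 ± 0.35 (adjusted p = 0.0224). GATA6, an endoderm factor, was lower with 0.732, 0.215 and 0.023 TPM against 0.983 to 13.2 (median 3.35), with a gap of -3.13 ± 0.67 (adjusted p = 0.0316). HNF4G, a nuclear receptor of gut epithelium, had no count in HCC4006 and 0.659 to 4.96 (median 2.096) in the others, at least 23.2-fold lower than in the line nearest to it. SPDEF, a factor of goblet cells, stood at 114, 104 and 99.6 TPM against 0.047 to 22.7 (median 3.04), and FOXA3 at 4.01, 4.37 and 4.75 TPM against 0 to 0.617 (median 0). Both were without overlap and missed the threshold (adjusted p = 0.192 and 0.0631).

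Alveolar type 2 genes were mostly higher than the mean of the lines, but few were higher than each line. Of 14 tested, 11 were higher than the mean and none lower, with a median of 3.95 (3.25 with the floor), against 0.03 over all genes. Of all genes tested 20.1% were higher than the mean, 13.1% were lower and 2.28% were set apart as higher. In bulk RNA a larger share of cells of a type and more RNA per cell cannot be told apart. Only DLK1, a Notch-related ligand, was set apart, with 3.94, 6.25 and 5.12 TPM against 0.041 to 0.454 (median 0.169), with a gap of 5.29 ± 0.49 (adjusted p = 0.000573). PIGR, the receptor that carries IgA across epithelium, stood at 83.2, 285 and 1209.7 TPM against 0.008 to 53.6 (median 9.34), and CTSH, a protease that processes surfactant protein B, at 534, 695 and 510.5 TPM against 15.4 to 275 (median 127). These 2 genes and SFTPD did not overlap with the other lines. NAPSA, the aspartic protease of the same pathway, stood at 82.9, 221 and 705 TPM and SLC34A2, a phosphate carrier, at 655, 936 and 2290.0 TPM, and both overlapped with the other lines (1.896 to 179, median 18.04 and 0.483 to 2677, median 25.6). SFTPB stood at 2.39, 11.4 and 4.77 TPM, and the near-identical SFTPA1 and SFTPA2 did not exceed 20.3 and 13.3 TPM. Among 10 alveolar type 1 genes, AQP5, a water channel (3.11, 3.17 and 17.7 TPM against 0 to 0.428, median 0), and COL4A3 were set apart as higher. AGER, a marker of these cells, was at 0, 0.035 and 0.026 TPM and was not among the genes set apart.

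Secretory genes went both ways. Of 19 tested secretory and goblet genes, 2 were set apart as higher and 3 as lower, against 2.28% and 1.4% over all genes. AGR2, a disulfide isomerase needed to fold mucins, stood at 618, 1286 and 1024 TPM against 10.1 to 343 (median 98.8), with a gap of 2.36 ± 0.43 (adjusted p = 0.0163), beside SCGB3A1. CEACAM6, an adhesion molecule, stood at 5526, 8850.4 and 7109 TPM against 17.8 to 1825 (median 230.3), without overlap but not set apart (adjusted p = 0.0653). MUC4 stood at 0.002, 0.058 and 0 TPM against 3.05 to 28.9 (median 8.13), with a gap of -9.48 ± 0.58 (adjusted p = 0.000102). MUC16 stood at 0.008, 0.012 and 0.046 TPM against 0.536 to 9.29 (median 2.41), with a gap of -4.98 ± 0.85. MUC13 had no count in HCC4006 and 0.276 to 5.65 (median 1.65) elsewhere. MUC1 (26.8, 47.8 and 58.9 TPM) lay in the range of the other lines, and the club cell gene SCGB1A1 was listed at 0, 0.224 and 0 TPM. Neither was among the genes set apart.

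The list of epithelial adhesion and polarity genes lay near the mean of the lines by its median. Of 34 tested epithelial adhesion and polarity genes none was set apart by edgeR or without overlap, 7 were higher than the mean of the lines and 1 lower, and the median was 0.08. CDH1, which codes for E-cadherin, stood at 112, 100.4 and 125 TPM, below NCI-H2009 (mean 423), near LC-2/ad (125) and above NCI-H2228 (19.01). EPCAM (650.0, 719 and 701 TPM) and SPINT2 (1067, 947 and 889 TPM) were within the range of the others. None of 23 keratins, 14 claudins or 13 cadherins was set apart. Over all genes tested 3.68% were, so lists of these sizes hold few such genes or none at that share. Of the claudins 7 were higher than the mean of the lines and 2 lower, against 20.1% and 13.1% over all genes. Their median was 0.73, and 2 were higher without overlap. Of the keratins 4 were higher and 5 lower (median -0.68), with 3 lower without overlap. Of the cadherins 4 were higher and 1 lower (median 1.14). KRT19 and KRT7, the keratins of simple epithelium, reached 3969.6 and 5175 TPM.

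Mesenchymal genes went both ways. Of 31 tested, 3 were set apart as higher and 3 as lower, 7 were higher and 9 lower than the mean of the lines, and the median was 0.15 (0.08 with the floor). Over all genes 2.28% were set apart as higher and 1.4% as lower. Against the mean the shares were 20.1% higher, near that of this list, and 13.1% lower. The higher ones were CD44, the hyaluronan receptor (5194, 5698 and 3711 TPM against 87.9 to 542, median 118, gap 2.76 ± 0.33, adjusted p = 0.00198), SPARC, a collagen-binding glycoprotein (1329.6, 2657 and 4524 TPM against 21.8 to 223, median 47.05, gap 4.54 ± 0.82, adjusted p = 0.0154), and WNT5A (5.77, 7.65 and 8.24 TPM against 0 to 0.84, median 0.351). The lower ones were COL6A1, COL6A2 and S100A4, a calcium-binding protein (26.8, 44.4 and 28.3 TPM against 46.99 to 2586, median 268, gap -2.29 ± 0.42). ZEB1 and ZEB2, repressors of E-cadherin, did not exceed 0.063 and 0.026 TPM in HCC4006 and were not among the genes set apart. VIM, which codes for vimentin, stood at 116, 111 and 88.4 TPM, between LC-2/ad (mean 14.03) and NCI-H2228 (838).

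Basement membrane genes also went both ways. Over all genes tested 2.28% were set apart as higher and 1.4% as lower. Of 23 tested laminin and basement membrane chains, COL4A2 (247, 84 and 67.99 TPM against 0.982 to 63.3, median 12.6, adjusted p = 0.011) and COL4A3 (2.18, 1.54 and 1.25 TPM) were set apart as higher. LAMA3, the alpha chain of laminin-332 (2.75, 2.54 and 0.779 TPM against 9.33 to 39.1, median 14.04, gap -2.96 ± 0.45, adjusted p = 0.00719), and LAMA4 (gap -1.63 ± 0.32) were set apart as lower. ITGB4, the hemidesmosome integrin that binds laminin-332, was the only 1 of 23 integrin subunits set apart, against 3.68% over all genes. It stood at 47.5, 32.2 and 38.3 TPM against 82.5 to 130.0 (median 98.4), with a gap of -1.31 ± 0.25 (adjusted p = 0.0184).

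CD44 lies in a stretch of chromosome 11 in which most tested genes were high. Chromosomes were divided into windows of 5 Mb, of which 449 held at least 15 tested genes. The highest median log2 difference, 3.12, was that of the window from 30000001 to 35000000 on chromosome 11, where 18 of 31 genes were set apart as higher, against a 95th percentile of 0.94 over windows. The stretch from EIF3M to TRAF6, 32583798 to 36510272, was delimited after its values were seen and is a description. Of its 35 tested genes, 24 were set apart as higher, 5.69% of all genes set apart as higher, 30 had no overlap and the median was 3.32. CD59, an inhibitor of complement, stood at 5598, 6518 and 7623 TPM against 231 to 566 (median 405), and CAT, which codes for catalase, at 626, 745 and 708 TPM against 45.6 to 105 (median 65.8). EIF3M, a subunit of a translation initiation factor, stood at 2671, 2894 and 2457 TPM against 85.3 to 419 (median 340.2). PDHX, a subunit of the pyruvate dehydrogenase complex, stood at 385, 358 and 266 TPM against 18.9 to 53.8 (median 27.9). LMO2, a cofactor of transcription best known from blood cells, stood at 14.2, 8.73 and 7.87 TPM against 0 to 0.346 (median 0.111). EHF lies in the same stretch. The exceptions with a log2 difference under 1 were CSTF3 (0.31, although its TPM did not overlap), CSTF3-DT (0.11), ELF5 (0.23, and -1.36 with NCI-H2228, which had no count, set to the floor) and PRR5L (-0.63). In the plot of distance from CD44 no gene before EIF3M was set apart. Of these, LGR4 (0.88), LIN7C (0.82) and METTL15 (0.91) were higher than the mean of the lines by edgeR (adjusted p = 0.0224, 0.0221 and 0.00454), and METTL15 had no overlap.

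**Figure D3:**
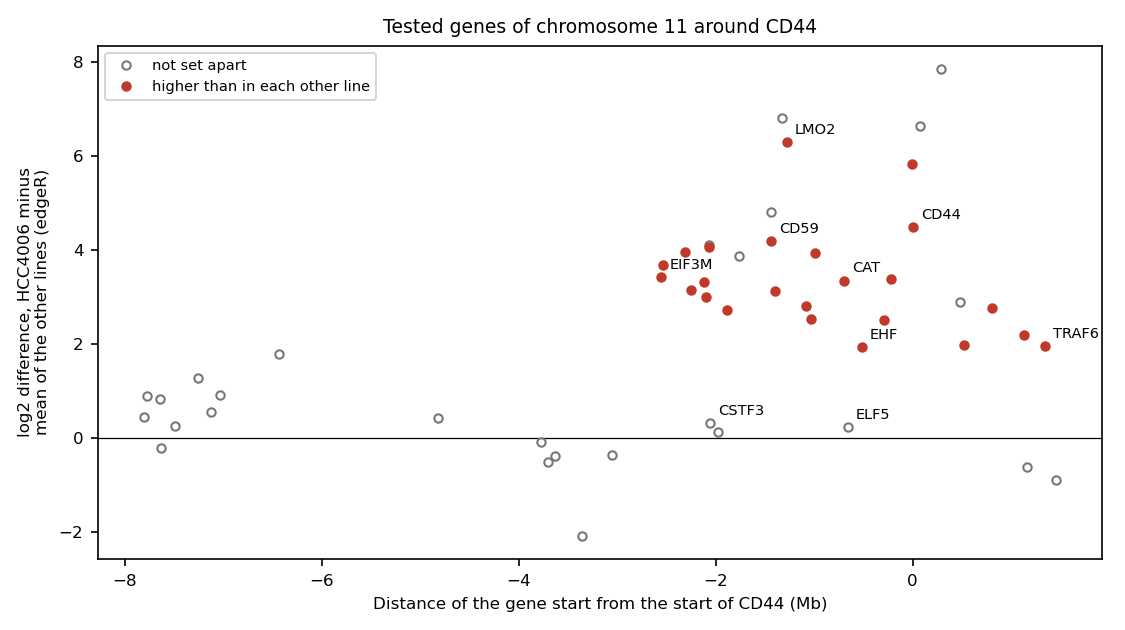
Log2 difference of HCC4006 from the mean of the other lines (edgeR) for tested genes around CD44 on chromosome 11, by the distance of the gene start from that of CD44 in Mb. Filled points are genes set apart as higher, and they fill the stretch from EIF3M to TRAF6 and none of the positions before it.

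Other windows were less uniform. The second window, on chromosome 19 from 20000001 to 25000000, had a median of 1.80 but no gene set apart, since the median was 4.80 against LC-2/ad and -0.72 against NCI-H2009. The third, the first 5 Mb of chromosome 9, had a median of 1.77 and 7 of 22 genes set apart as higher, among them SMARCA2, DOCK8, KANK1, VLDLR and SLC1A1. The 3 windows with the lowest medians all lay on chromosome 6 and began at 20000001 (-1.53), 10000001 (-1.17) and 35000001 (-1.14). Over the whole of chromosome 6, 44 of 983 tested genes were set apart as lower and 7 as higher. GCLC, described with the NRF2 targets, is on chromosome 6. Chromosome X had the highest median of any chromosome, 0.81, with 59 of 628 genes set apart as higher.

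HOX genes, which give cells their position along the body axis, were the list with the most members set apart (7). Of 34 tested, 23 were higher than the mean of the lines and 5 lower, 6 were set apart as higher and 1 as lower, and the median was 2.34 (2.27 with the floor). Over all genes 20.1% were higher than the mean and 13.1% lower, and 2.28% and 1.4% were set apart. Of the 6 HOX genes set apart as higher, 4 were neighbours at the 5′ end of the HOXC cluster. HOXC10 stood at 40.2, 30.5 and 37.2 TPM against 0 to 0.784 (median 0.152), with a gap of 6.03 ± 0.77 (adjusted p = 0.00297). HOXC13 stood at 18.6, 14.6 and 11.6 TPM against 0 to 2.14 (median 0), with its nearest values in LC-2/ad, and HOXC11 at 3.79, 2.71 and 3.55 TPM against 0 to 0.392 (median 0). HOXB2 and HOXD9 were the others, and HOXD9 stood at 1.83, 1.203 and 2.002 TPM against 0 to 0.067 (median 0). HOXA3 was set apart as lower, with 0, 0.029 and 0.061 TPM against 3.81 to 15.8 (median 8.26), with a gap of -5.74 ± 0.76 (adjusted p = 0.00375). HOXA10 of the same cluster was high at 35.7, 32.01 and 28.2 TPM against 0.122 to 19.6 (median 8.91), but it was not set apart. Neighbouring HOX genes overlap each other and antisense transcripts, so small values there are uncertain.

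**Figure D4:**
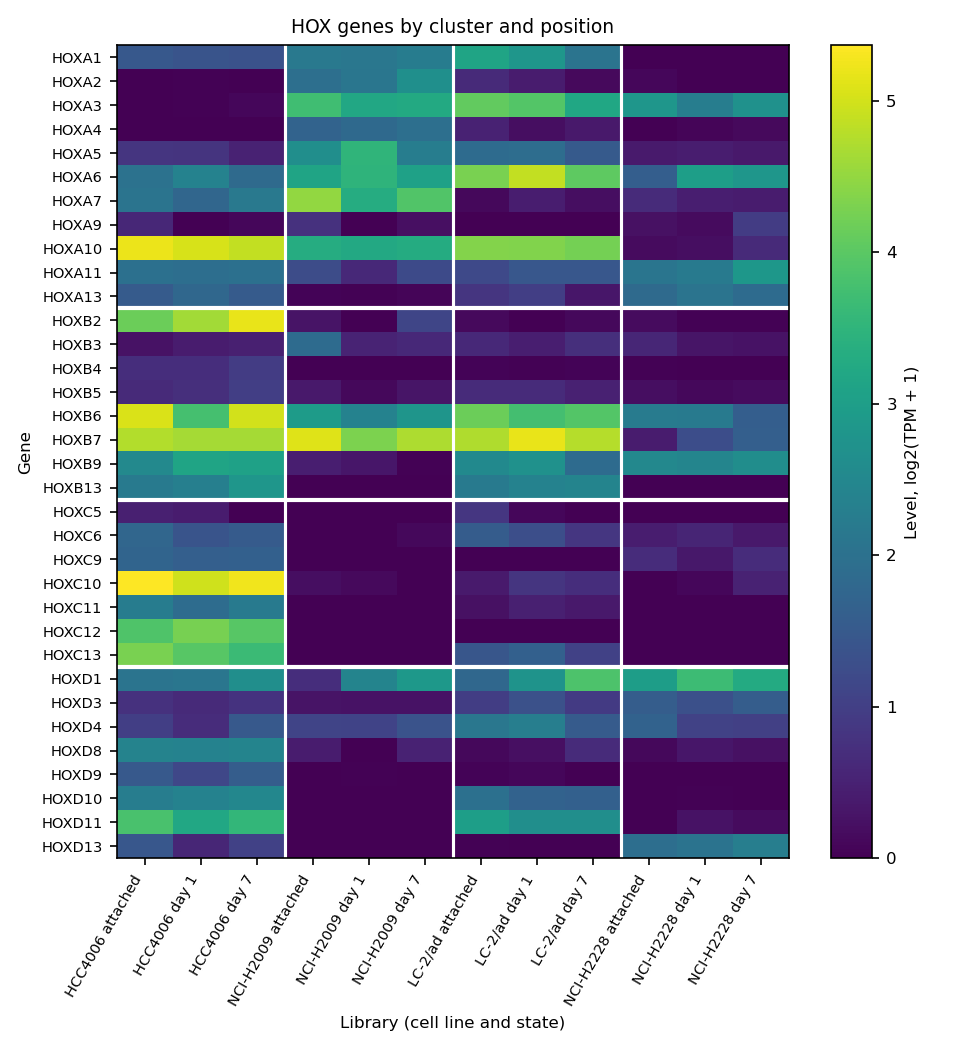
Levels of the 34 tested HOX genes, as log2(TPM + 1), by library, with white lines between clusters and between cell lines. In the HCC4006 columns HOXC10 to HOXC13 and HOXB2 are bright and HOXA2 to HOXA4 dark.

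Interferon-stimulated genes were higher in HCC4006 in each state. Of 23 tested, 18 were higher than the mean of the lines and none lower, 11 had no overlap, 3 were set apart and the median was 1.63. The shares over all genes were 20.1% higher than the mean, 8.59% without overlap as higher and 2.28% set apart as higher. IFI6 stood at 257, 488 and 462 TPM against 13.5 to 137 (median 38.2), with a gap of 2.31 ± 0.51 (adjusted p = 0.0347). IFIT2 stood at 48.8, 46.4 and 48.8 TPM against 2.21 to 16.2 (median 6.96), with a gap of 1.92 ± 0.35 (adjusted p = 0.0164), and IFIT3 at 49.1, 38.8 and 41.3 TPM against 7.54 to 17 (median 14.8), with a gap of 1.44 ± 0.22 (adjusted p = 0.00722). Both IFIT genes overlap LIPA on the opposite strand. ISG15, a ubiquitin-like modifier, stood at 1063, 1283 and 1079.8 TPM against 107 to 965 (median 251), and MX1, an antiviral GTPase, at 79.1, 57.1 and 86.7 TPM against 1.196 to 43.4 (median 13.97). These 2 did not overlap and were not set apart (adjusted p = 0.284 and 0.571). IRF7 and USP18 were inside the range of the other lines.

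Factors activated by interferon bind a repeated GAAA element. GAAA followed by any 2 bases and GAAA again was searched on both strands from 250 bases before to 50 after each gene start in RefSeq promoters of GRCh38.p14. It was found for 12 of the 15 members with a promoter in that table (16 of 22 promoters), and in 3.57% of all 35116 promoters. A match is a description of letters and not of binding. Of the 3 members set apart, IFIT2 had no promoter in that table and could not be searched. The promoters of IFI6 and IFIT3 are shown because most members of the list were higher than the mean of the lines. They are in lower case with the element in capitals, from 170 to 21 bases before the start and read 5′ to 3′ along the gene. In IFIT3 the element is on the other strand and reads in reverse. IFI6 is chr1:27672213-27672362 (minus strand), and the 2 starts of IFIT3 are chr10:89327827-89327976 and chr10:89332359-89332508 (plus strand).
IFI6: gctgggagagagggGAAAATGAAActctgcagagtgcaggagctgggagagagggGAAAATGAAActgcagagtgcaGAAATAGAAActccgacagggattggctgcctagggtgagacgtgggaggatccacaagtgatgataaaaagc
IFIT3 first start: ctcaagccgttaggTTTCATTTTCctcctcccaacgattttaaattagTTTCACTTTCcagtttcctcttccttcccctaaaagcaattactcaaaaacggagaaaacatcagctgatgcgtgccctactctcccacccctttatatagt
IFIT3 second start: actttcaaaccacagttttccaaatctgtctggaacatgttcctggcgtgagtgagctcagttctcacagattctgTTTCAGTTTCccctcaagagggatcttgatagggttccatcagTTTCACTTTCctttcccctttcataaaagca

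NRF2 targets were lower. NRF2 is the factor that raises enzymes of glutathione synthesis, NADPH supply and detoxification, and KEAP1 holds it down. Of 23 tested targets, 17 were lower than the mean of the lines and 2 higher, 6 had no overlap as lower, 3 were set apart as lower and the median was -1.91. The shares over all genes were 13.1% lower and 20.1% higher than the mean. For no overlap as lower the share was 4.89%, and for set apart as lower 1.4%. AKR1C3, an aldo-keto reductase, stood at 1.39, 1.84 and 0.965 TPM against 15.2 to 1245 (median 200.2), with a gap of -4.09 ± 0.47 (adjusted p = 0.00173), with its highest values in NCI-H2228. TXNRD1, thioredoxin reductase, stood at 122, 92.1 and 83.6 TPM against 185 to 918 (median 338), with a gap of -1.43 ± 0.22 (adjusted p = 0.00809). GCLC, the catalytic subunit of the first enzyme of glutathione synthesis, stood at 12.4, 6.67 and 5.51 TPM against 20.1 to 322 (median 56.5), with a gap of -1.66 ± 0.28 (adjusted p = 0.0116). NQO1, a quinone reductase, stood at 509, 542 and 319 TPM against 592 to 5692 (median 1426), without overlap and not set apart (adjusted p = 0.236). ALDH3A1 and CES1 were the 2 members higher than the mean. KEAP1 itself was at 68.02, 58.8 and 65.5 TPM, within the range of the other lines (34.97 to 243, median 83.6). The highest value of AKR1C3, TXNRD1, GCLC and NQO1 was in each case in NCI-H2228.

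NRF2 binds antioxidant response elements, searched here as TGACNNNGC on both strands in the same windows. It was found for 5 of the 15 members with a promoter (6 of 17 promoters) and in 13.3% of all promoters. Neither the GCLC promoter nor those of AKR1C3 held these letters in this window. TXNRD1 is shown because it was set apart and held them at both of its starts, chr12:104215609-104215758 and chr12:104286862-104287011 (plus strand). At the second start the element reads in reverse.
TXNRD1 first start: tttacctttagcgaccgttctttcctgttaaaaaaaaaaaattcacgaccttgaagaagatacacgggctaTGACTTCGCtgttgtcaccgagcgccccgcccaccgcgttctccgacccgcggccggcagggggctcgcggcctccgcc
TXNRD1 second start: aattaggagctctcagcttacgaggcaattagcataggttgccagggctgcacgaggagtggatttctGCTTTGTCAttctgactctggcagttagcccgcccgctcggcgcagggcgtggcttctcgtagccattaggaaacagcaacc

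**Figure D5:**
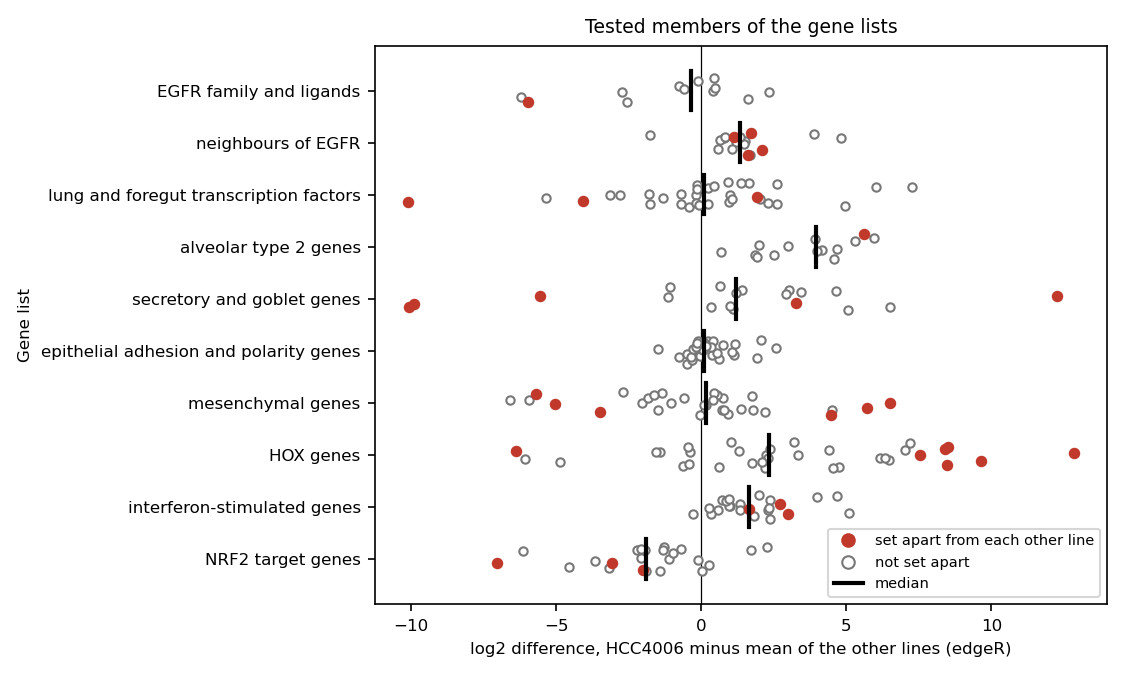
Log2 difference of HCC4006 from the mean of the other lines (edgeR) for each tested member of 10 gene lists, with filled points for members set apart and bars for medians. Alveolar type 2, HOX and interferon-stimulated genes lie mostly to the right of 0, NRF2 targets to the left, and epithelial genes around 0.

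Most Wnt feedback genes were higher than the mean of the lines. Of 15 tested, 10 were higher and 1 lower, with a median of 2.57. Over all genes 20.1% were higher and 13.1% lower, and 2.28% were set apart as higher. WIF1, a secreted Wnt inhibitor, stood at 3.47, 4.67 and 13.1 TPM against 0 to 0.151 (median 0), and NKD2, an inhibitor inside the cell, at 3.83, 4.62 and 2.67 TPM against 0.018 to 0.675 (median 0.27). Both were set apart (adjusted p = 0.0236 and 0.0264). Of 21 ALDH and xenobiotic genes, CYP1B1, a target of the aryl hydrocarbon receptor, was set apart as lower (1.35, 1.01 and 0.406 TPM against 4.18 to 273, median 143, gap -5.52 ± 1.16) and ALDH3A2, a fatty aldehyde dehydrogenase, as higher (189, 252 and 186 TPM against 45.8 to 146, median 75.7, gap 1.03 ± 0.23).

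No member was set apart among 20 tested EGFR adaptors and regulators, 23 YAP and TAZ targets, 9 ciliated, 15 basal and squamous, 7 neuroendocrine and 14 gut and hepatic genes. The same held for 12 cancer-testis antigens of the X chromosome, 13 MHC class II and 14 MHC class I genes. Over all genes tested 3.68% were set apart, so lists of these sizes hold few such genes or none at that share. Against the mean of the lines 20.1% of all genes were higher and 13.1% lower. By that measure 7 class II genes were higher and 1 lower (median 1.42). Of the class I genes 1 was higher and 6 were lower (median -0.71). Higher and lower counts were 2 and 5 for cancer-testis antigens (median -2.59) and 2 and 4 for basal and squamous genes (median -1.98). They were 2 and 4 for gut and hepatic genes (-0.20), 3 and 1 for ciliated (-0.47) and 3 and 1 for neuroendocrine genes (0.09). For YAP and TAZ targets they were 7 and 3 (0.21), and for EGFR adaptors and regulators 3 and 4 (-0.09). The 2 members of highest mean TPM in each of these lists lay inside the range of the other lines or overlapped with it, with 2 exceptions. GRB2, an adaptor of EGFR, stood at 116, 112 and 85.2 TPM against 64.7 to 166 (median 137), and STAT3, a transcription factor downstream of it, at 131, 117 and 137 TPM against 115 to 205 (median 155). F3, which codes for tissue factor and is a YAP target, stood at 209, 161 and 46.5 TPM against 28 to 304 (median 142), and UCHL1, a neuronal deubiquitinase, at 27.5, 22.2 and 11.5 TPM against 10.03 to 973 (median 199). B2M, the light chain of class I, stood at 5826, 9704 and 10553 TPM against 1595 to 11266 (median 6063). The exceptions were XAGE1A (496, 515 and 458 TPM against 783 to 1370.1, median 1040.2) and XAGE1B (265, 260.1 and 245 TPM against 391 to 764, median 550.3), near-identical copies whose estimates are uncertain. CD74, the invariant chain of class II, stood at 789, 1593 and 5089 TPM, with means of 2319 in NCI-H2228, 114 in LC-2/ad and 172 in NCI-H2009. Markers of other cell types were looked at as a check on the cultures. Of 8 leukocyte, 8 fibroblast and 6 endothelial markers, 5, 6 and 5 stayed under 1 TPM in each HCC4006 library, and none was set apart. The leukocyte sum was 38.4 to 120 TPM in HCC4006 against 3.60 to 61.8 TPM in the others, carried mainly by CD14 (16.3, 41.1 and 91.1 TPM) and CD68 (21.7, 45.4 and 26.4 TPM), and 2 of the 8 markers were at 0. The fibroblast sum was 4.39 to 6.42 TPM against 6.05 to 378 TPM, with COL1A1 at 5.02, 5.52 and 4.12 TPM and 2 markers at 0. The endothelial sum was 1.57 to 7.92 TPM against 0.602 to 13.2 TPM, with KDR at 1.12, 3.58 and 7.27 TPM and 1 marker at 0. The part of these markers in the results was not tested.

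Of noncoding genes, AC073389.2 (25.4, 33.2 and 26.3 TPM) had no count in the other lines and was at least 244-fold higher. It overlaps AGAP5 on the opposite strand and is uncertain. AC008268.1 (26.8, 79.9 and 269 TPM against 0 to 5.12, median 0.031) and RBAKDN (16.3, 22.3 and 25.1 TPM against 1.88 to 5.53, median 3.06) were set apart as higher. LINC01578 (26.5, 29.9 and 28.4 TPM against 49.2 to 103, median 70.9), which overlaps AC013394.1 on the same strand and is uncertain, and LSP1P4 (gap -2.32 ± 0.53) were lower. How strand entered the counting is not stated in these sources. Values of named genes that overlap another tested gene are therefore uncertain to that extent. Among genes named by rule these include ALDH3A2, AQP5, CD44, COL4A2, COL4A3, CYP1B1, EDIL3, EMP3 and GCLC. They also include HOXA3, HOXC10, ITGB4, MGP, NIPSNAP2, POPDC3, SEC61G, SLC16A1 and TXNRD1. CD59, EIF3M, PDHX, CSTF3 and CSTF3-DT, in the stretch of chromosome 11, overlap tested genes too. For the other genes named outside the rule, overlaps are not listed here. FABP5P7 is a pseudogene of FABP5, and its estimate cannot be separated from that gene with certainty.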

How the data were processed

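RNA sequencing of 4 lung adenocarcinoma lines in 3 states gave 12 libraries with a SMART-Seq kit (per the labels' protocols). The authors deposited TPM, per the file headers, and estimated counts for 60715 genes, and the submitters' processing notes name the build GRCh38. The deposited estimated counts were not scaled between libraries, and 31.5% of those above 0 differ from a whole number by more than 0.001. Aligner, quantification tool, annotation and strand setting: not given in the sources used here. Totals ran from 31134420 to 41882024 counts, so 1 count stood for 0.0239 to 0.0321 CPM, and this describes counting error only.

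Libraries were grouped by the cell line in the labels. Counts were rounded and tested with edgeR 4.0.16 (R 4.3.3): filterByExpr by line left 18494 genes, libraries were scaled by TMM, and a quasi-likelihood model with line and state, the state being the block, left 6 degrees of freedom for the residual, with 39.7% as biological coefficient of variation. The standard error restates the fold change and its F statistic. The script was tested on simulated counts with known changes put into HCC4006. These had less spread than the data and no differences among the other lines or between states. They check the code and not the error rates in these data. Alternatives used DESeq2 1.42.0, limma 3.58.1 on log2(TPM + 1) and log2(TPM + 0.1), other filters and models, and left out libraries or lines. No library or sample was excluded from the main test.

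The members and the gene lists were chosen with earlier results of these data known, so no list is independent evidence. Named genes are EGFR, the 15 higher and 15 lower protein-coding genes with the widest gap (no overlap, and at least 10 TPM in each library of the higher side), 3 noncoding genes in each direction, and from each list up to 4 members set apart or, with none, up to 2 of the highest mean TPM. Every other gene named was chosen after its values were seen. A few genes are not reported here.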

Additional observations from a re-analysis of the deposited data

How the results depend on the processing

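The counts of genes set apart moved with the model and with the libraries used. No gene set apart in the main test was set apart in the opposite direction in any of the 22 alternatives. All of these reuse the 12 libraries or a part of them, so an opposite call was unlikely and its absence is not independent support. For genes set apart as higher (422), DESeq2's Wald test gave 835 and limma on log2(TPM + 1) 650. For lower genes (258) DESeq2's Wald test gave 595. With the other lines taken as 1 group, no test is made against each line. Its counts, 748 higher and 455 lower, are of genes that passed against that group with the same sign against each line. They answer a different question from the other counts. The fit without the state as replicate block gave 292 higher and 169 lower. Leaving out the line NCI-H2009 gave 1157 higher and 950 lower, leaving out NCI-H2228 1134 and 746, and leaving out LC-2/ad 431 lower, since fewer lines then have to differ. Leaving out each library in turn gave 137 to 474 higher and 79 to 299 lower. Against the mean of the lines (3713 higher and 2419 lower), 1 group gave 748 and 455, and leaving out each library gave 2472 to 4012 higher and 1290 to 2865 lower, with 2472 without the day 7 library of HCC4006. Of 73 named genes set apart, 42, 44 and 40 remained without the attached, day 1 and day 7 library of HCC4006. Each line has 1 library per state, and the effect of sequencing depth on the calls was not tested. The state labels pair libraries across lines by culture state.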
